A study of Homo sapiens with 12 samples.

Results

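RCC4, an established line of human clear cell renal cancer without working VHL, was compared after YAP silencing and after a control transfection, both in the solvent DMSO. Of 12 arrays in the series, 6 belong to this comparison: 3 of cells given an siRNA against YAP and then DMSO (siYAP), and 3 of cells given a non-targeting siRNA and then DMSO (siNT). Cells of both groups carried siRNA for 2 days before 7 hours of DMSO, which here is the vehicle of the other 6 arrays, where the same siRNA groups received 1 µM erastin. Arrays were chosen by their labels alone, and genes by a single rule: a probe set had to name exactly 1 gene, and where a gene had several the brightest on average over the 12 arrays stood for it, which left 11963 genes. The model is a single cell line with transient silencing, and the siRNA sequences were not among the sources used here. With a single siRNA condition against YAP and no rescue, loss of YAP and other effects of that siRNA cannot be told apart. Samples are called biological triplicates in the labels, with no word on separate cultures, so a p-value here reflects only how far these samples spread, which may be technical.

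YAP, encoded by YAP1, is the transcriptional co-activator that the Hippo pathway restrains. When the Hippo kinases MST and LATS are inactive, YAP and its paralogue TAZ (encoded by WWTR1) enter the nucleus and act with the TEAD transcription factors, largely at distal enhancers. In epithelial and kidney cancer cells YAP is known for driving proliferation, cytoskeletal and matrix genes, and for overlap with the AP-1 and E2F programmes.

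Values are log2 levels from RMA, so a difference of 1 is a 2-fold change. Levels of different genes are compared only coarsely: as high or near the bottom of the scale, by rank, and as means over marker lists. The DMSO arrays had nearly equal distributions: medians over the 12 arrays lay between 6.49 and 6.52. Arrays of the same DMSO group correlated at 0.9976 to 0.9985 over all 22277 probe sets, and arrays of different groups at 0.9899 to 0.9914. Tubule markers PAX8 (10.64, 10.60 and 10.59 in siNT) and CDH6 (11.84, 11.93 and 11.79) were at high levels, while the proximal tubule receptor LRP2 was near the bottom of the scale at a mean of 2.81. The leukocyte gene PTPRC (mean 3.75) and the endothelial gene PECAM1 (mean 4.33) were also near the bottom. Other markers of such cells were not. The highest siNT means were 9.41 for the immune marker CD74, 6.55 for the endothelial EGFL7 and 7.45 for COL1A1 of fibroblasts. Summed over lists, the mean level of 16 tubule markers was 7.44 to 7.47 in siNT and 7.62 to 7.65 in siYAP, that of 11 endothelial markers 4.37 to 4.55 and 4.48 to 4.52, that of 12 fibroblast and pericyte markers 4.98 to 5.04 and 5.08 to 5.16, and that of 11 immune markers 4.71 to 4.85 and 4.80 to 4.84. The signal of ACTB at its 3' end exceeded that at its 5' end by 2.40, 2.66 and 2.97 in siNT and by 3.14, 1.49 and 3.14 in siYAP, so siYAP array 2 stood below the rest. For GAPDH the same difference was 0.12 to 0.25 on all 6 arrays. The part of RNA quality in the results below was not tested.

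The silenced gene went the way of its labels on every array. YAP1 stood at 8.55, 8.59 and 8.47 in siNT and at 4.18, 4.88 and 4.81 in siYAP. The groups did not overlap, and the level after silencing lay in the low part of the scale, so the size of the fall is uncertain. The fitted log2 change was -3.91 (SE 0.308), with adjusted p = 8.44e-07 in limma, which fits all genes at once.

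After silencing a large part of the measured transcriptome differed by small steps, and the largest steps were downward. Of 11963 genes, 2165 were higher in siYAP, which is 18.1% of those tested, and 1865 lower, which is 15.6% (limma, Benjamini-Hochberg adjusted p under 0.05). Of the 4030 called genes 1022 changed by under 1.2-fold, and the smallest called change was 0.132 on the log2 scale. Among called genes that changed at least 2-fold, 111 were higher (0.928% of those tested) and 213 lower (1.78%). The median change over all genes was 0.02. Every siYAP array lay above every siNT array for 2952 genes (24.7%) and below for 2477 (20.7%).

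The balance of rises and falls differed with the level in control cells, which is itself part of the difference. Genes were ranked by their siNT level and split into 4 nearly equal groups of 2984 to 3002 genes. From the lowest (2.24 to 4.96) to the highest (9.24 to 14.36), 133, 472, 818 and 742 were called higher. Called lower were 53, 283, 752 and 777. Genes at 7.26 or above were thus called more often in both directions than dimmer genes. Falls of at least 2-fold numbered 0, 21, 87 and 105 from the lowest to the highest group. Rises of that size numbered 13, 39, 44 and 15. A gene near the bottom of the scale has little room to fall, and the part of that limit in these counts was not tested. Below, genes are grouped in 55 lists. A list of bright genes can exceed the shares over all genes without standing apart from genes of its level. Of 39 list counts of 1 to 4 members, 13 moved by over 1.5 times when some array was left out, so such small counts are loose. Larger counts that did so have the values beside them.

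Promoter sequences of genes from lists with many called members, and of the textbook YAP target CCN2, are printed here because the results below return to the motifs they hold. The windows are 250 bases before the RefSeq start in build GRCh38.p14, written 5' to 3' on the gene's strand in lower case, with the matched motif in capitals. IFITM1 was set by the rule for named genes, and the others were chosen after their values were seen. IFITM1 lies at chr11:313790-314039 on the plus strand and shows an ISRE-like match, the type of element read by interferon-activated factors. POLA1 (chrX:24693668-24693917, plus strand) shows a pair of E2F matches. KIF23 (chr15:69414099-69414348, plus strand) and CCNB2 (chr15:59104896-59105145, plus strand) each show a CHR match, the element that binds the DREAM and MMB complexes in mitotic genes. CCL20 (chr2:227813592-227813841, plus strand) shows an NF-kB-like site, and CCN2 (chr6:131951373-131951622, minus strand) shows 3 TEAD matches.
IFITM1: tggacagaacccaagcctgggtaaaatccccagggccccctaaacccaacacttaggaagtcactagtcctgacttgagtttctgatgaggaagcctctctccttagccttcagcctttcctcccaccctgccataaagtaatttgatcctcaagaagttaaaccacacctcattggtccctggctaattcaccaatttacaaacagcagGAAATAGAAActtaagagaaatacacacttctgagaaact
POLA1: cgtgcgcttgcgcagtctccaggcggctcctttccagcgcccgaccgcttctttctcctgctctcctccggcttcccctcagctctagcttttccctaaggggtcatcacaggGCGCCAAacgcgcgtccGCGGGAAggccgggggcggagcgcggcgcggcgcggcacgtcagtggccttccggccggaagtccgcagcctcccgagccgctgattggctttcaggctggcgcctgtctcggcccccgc
KIF23: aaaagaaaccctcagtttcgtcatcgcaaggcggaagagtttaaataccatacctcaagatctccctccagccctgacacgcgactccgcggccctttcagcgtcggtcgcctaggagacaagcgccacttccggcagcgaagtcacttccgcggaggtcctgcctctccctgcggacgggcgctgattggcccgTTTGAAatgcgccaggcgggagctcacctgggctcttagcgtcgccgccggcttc
CCNB2: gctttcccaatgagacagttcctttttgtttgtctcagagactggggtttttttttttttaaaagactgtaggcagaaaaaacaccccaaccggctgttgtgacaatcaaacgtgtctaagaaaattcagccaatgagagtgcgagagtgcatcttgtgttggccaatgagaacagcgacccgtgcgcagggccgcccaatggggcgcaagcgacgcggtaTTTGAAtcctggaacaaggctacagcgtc
CCL20: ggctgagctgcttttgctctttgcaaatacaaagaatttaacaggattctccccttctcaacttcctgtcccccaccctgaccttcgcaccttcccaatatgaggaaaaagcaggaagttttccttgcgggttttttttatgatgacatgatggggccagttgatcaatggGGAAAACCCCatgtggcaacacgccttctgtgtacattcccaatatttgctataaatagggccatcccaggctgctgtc
CCN2: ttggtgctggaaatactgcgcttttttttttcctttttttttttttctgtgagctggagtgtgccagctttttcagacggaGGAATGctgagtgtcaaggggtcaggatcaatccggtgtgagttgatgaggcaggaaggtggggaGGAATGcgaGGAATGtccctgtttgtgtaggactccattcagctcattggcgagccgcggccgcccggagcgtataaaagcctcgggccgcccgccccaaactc
Windows of LMNB1, NDUFA5 and SPAST, which the rule also set, held no searched motif in the first and only CCAAT matches in the others. These are the 250 bases before the start. For NDUFA5 the longer window counted below also holds a CHR match at -3 and a CCAAT match at 29.

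The 15 largest falls, YAP1 first among them, held genes of organelles, metal transport and the cell cycle. LYRM1, a member of the LYR motif family, stood at 10.66, 10.60 and 10.54 in siNT and at 7.60, 7.78 and 7.69 in siYAP, a change of -2.91 (SE 0.178). OSTM1, the partner subunit of the lysosomal chloride transporter ClC-7, went from 10.03, 9.99 and 9.92 to 7.16, 7.07 and 7.27. PLOD2, which hydroxylates lysines of collagen for crosslinking, went from 11.45, 11.45 and 11.35 to 8.70, 8.74 and 8.81. For all 3 genes the groups were separated by more than 2 log2 units, while arrays of a group lay within 0.2 of each other. SLC11A2, the iron transporter DMT1, fell by 2.64 and CPOX, an enzyme of heme synthesis, by 2.21. SLC4A4, a sodium bicarbonate cotransporter, went from 9.54, 9.56 and 9.45 to 7.05, 7.01 and 7.00. SKP2, the F-box protein that marks p27 for destruction, went from 10.61, 10.64 and 10.63 to 8.22, 8.18 and 8.34. Both siYAP ranges were narrow and lay far below control.

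Further falls touched microtubules, peroxisomes and cell surface receptors. SPAST, which severs microtubules, fell by 2.56, PEX2, a ubiquitin ligase of the peroxisome membrane, by 2.39, and RCBTB1 by 2.46. TNFRSF21, the death receptor DR6, was at 10.28, 10.33 and 10.33 in siNT and at 7.99, 7.96 and 7.83 in siYAP. CXADR, the junction protein used as a receptor by coxsackie and adenoviruses, fell by 2.33. DCK, which phosphorylates salvaged deoxycytidine, fell by 2.21 with no overlap between 8.89 to 8.92 in siNT and 6.63 to 6.76 in siYAP. SUV39H2, a histone H3 lysine methyltransferase, went from 6.21, 6.23 and 5.79 to 3.21, 3.14 and 3.39. That end point is near the bottom of the scale, so its size is uncertain.

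The 15 largest rises held secreted, interferon-induced and matrix genes. CCL20, a chemokine that attracts CCR6-bearing lymphocytes, was at 5.59, 5.70 and 5.97 in siNT and at 8.48, 8.49 and 8.73 in siYAP, a change of 2.81 (SE 0.135). AGT, the precursor of angiotensin, went from 6.67, 7.02 and 6.79 to 9.63, 9.51 and 9.47. SCN3A, a voltage-gated sodium channel, went from 7.18, 7.36 and 7.16 to 9.88, 9.78 and 9.72. All 3 were well separated, and the spread between siYAP arrays did not exceed 0.3. PTX3, a pentraxin of innate immunity, rose by 2.12, and CCN3, a matricellular protein of the CCN family, by 2.18. The interferon-induced genes varied between siYAP arrays: IFITM1 was at 9.08, 9.25 and 9.99 in siYAP, IFI27 at 9.12, 9.44 and 10.12 and IFI6 at 10.06, 10.43 and 10.73. The siYAP array of replicate 3 was the highest for each, and all 3 arrays were above every siNT array.

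The remaining leading rises were of several kinds. SERPINB7, a serpin, rose by 1.83, DESI2, a deSUMOylating peptidase, by 1.79, and DRAM1, a p53-induced lysosomal membrane protein, by 1.74. DACT1, which binds Dishevelled in WNT signalling, rose by 1.76. CSGALNACT2, which starts chondroitin sulfate chains, rose by 1.73 and HS3ST1, a heparan sulfate sulfotransferase, by 1.77. Neither of the 2 further probe sets of HS3ST1 was called. CPEB3, an RNA-binding regulator of translation, rose by 1.91 from 4.45, 4.49 and 4.48, a control level near the bottom of the scale.

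**Figure D1:**
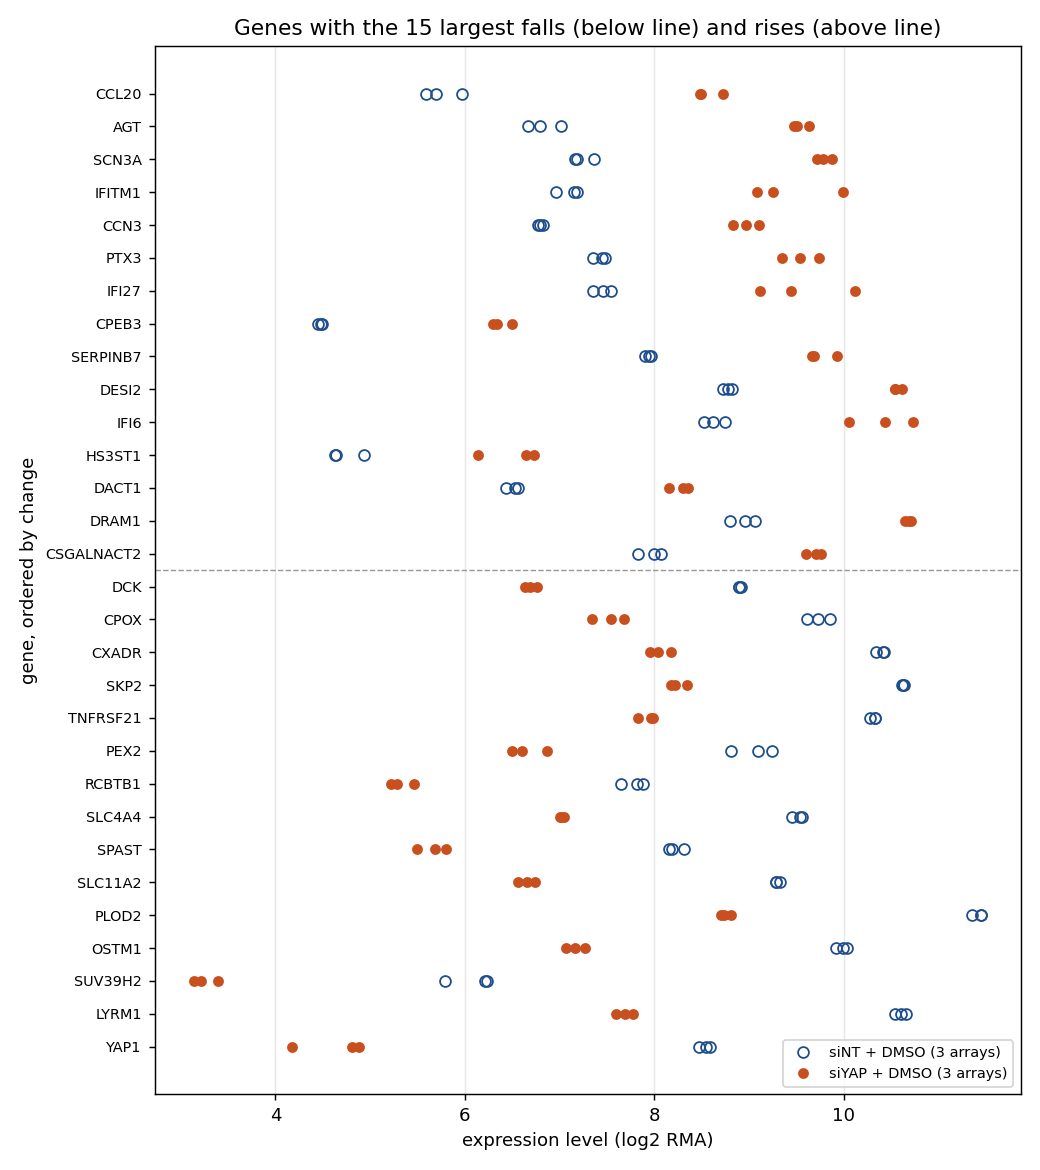
Log2 RMA level of the genes with the 15 largest rises and 15 largest falls, 1 point per array, open for siNT and filled for siYAP, both in DMSO. In every row the 3 siYAP points lie on one side of the 3 siNT points; this separation was a condition for being chosen.

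Genes of the Hippo pathway and classic YAP targets were split. Of 8 measured YAP, TAZ, TEAD and cofactor genes VGLL4 rose and 2 fell, YAP1 itself, which the siRNA targets, and TEAD3. Of 27 upstream Hippo genes 3 rose and 4 fell, and of 26 CCN and classic target genes 8 rose and 6 fell with a median of 0.01. FGF2 is among these 8, with a rise of 0.37, while its other probe set fell by 0.94. Over all genes 18.1% rose and 15.6% fell. WWTR1, the paralogue TAZ, stood at 12.33, 12.29 and 12.24 in siNT and at 12.32, 12.30 and 12.36 in siYAP (log2 change 0.04, limma adjusted p = 0.637). The arrays overlapped, but another probe set of WWTR1 was higher by 0.25 and passed the test. TEAD1 was at 6.98, 7.33 and 7.33 against 7.78, 7.37 and 7.44, and TEAD4 differed by 0.09, neither passing. TEAD3 fell by 0.27, and did not pass without siNT array 3 (-0.21) or without siYAP array 2 (-0.20). VGLL4, which competes with YAP for TEAD, rose from 8.63, 8.66 and 8.71 to 9.48, 9.52 and 9.40.

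Upstream, the clearest change was in a LATS activator. MOB1A, the adaptor that activates LATS kinases, went from 9.91, 9.91 and 9.75 to 8.04, 7.99 and 8.21, 3.43-fold lower. STRN3, a scaffold of the STRIPAK phosphatase complex, rose by 0.58, DLG1, a polarity scaffold, by 0.41, and WWC1, the scaffold KIBRA, fell by 0.30. AMOTL2, a YAP-binding junction protein that is also a YAP target and stands on the target list, went from 10.39, 10.40 and 10.31 to 9.84, 9.81 and 9.92. The kinase gene STK3 differed by 0.04 and the adaptor gene SAV1 by -0.02, with overlapping arrays. LATS1 was near the bottom of the scale at 3.35 to 3.47 in siNT.

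Of the textbook targets, CCN1 did not pass the test and CCN2 and ANKRD1 rose. CCN1, a matricellular protein, stood at 12.67, 12.63 and 12.61 in siNT and at 12.62, 12.56 and 12.71 in siYAP (log2 change -0.01, SE 0.060, limma adjusted p = 0.942). CCN2, also called CTGF, rose from 7.49, 7.39 and 7.25 to 8.06, 8.09 and 8.27. ANKRD1, a nuclear ankyrin-repeat protein, rose from 6.48, 6.55 and 6.48 to 7.31, 7.40 and 7.29. For both, every siYAP array was above every siNT array, and for CCN1 the groups overlapped. Among the falls were DLC1, a RhoGAP, from 10.12, 10.30 and 9.93 to 8.77, 8.78 and 8.68, the receptor kinase gene AXL by 0.36 and the survivin gene BIRC5 by 0.47. GADD45A, a stress-induced gene, rose by 0.61, CRIM1 by 0.39 and CCN5 by 0.38.

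**Figure D2:**
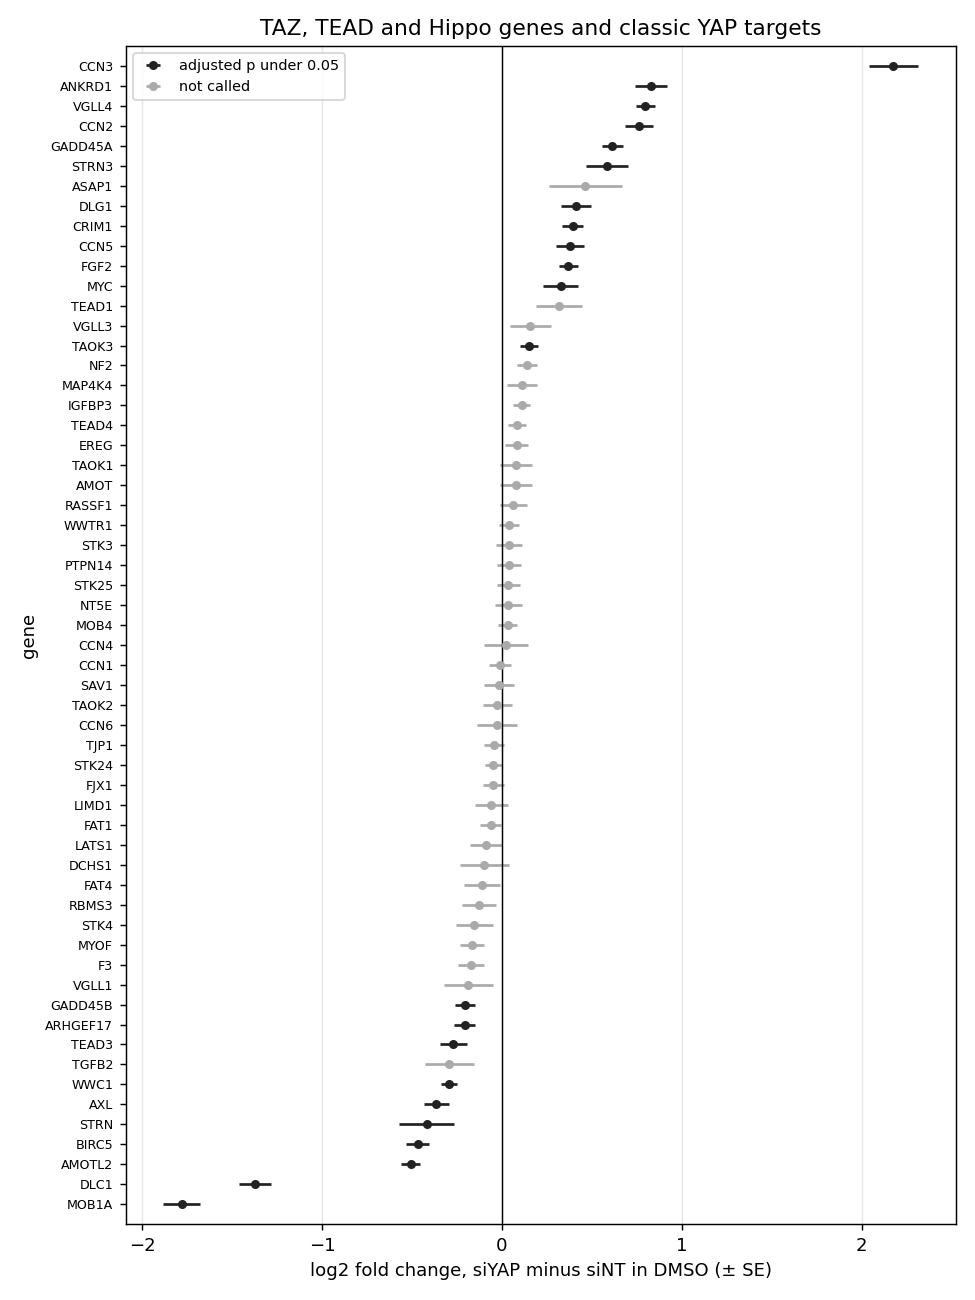
Log2 fold change of siYAP against siNT in DMSO with its SE for measured TAZ, TEAD, Hippo and YAP target genes other than YAP1, black where limma's adjusted p was under 0.05 and grey otherwise. Most points lie within 1 of the line at 0; CCN3 (2.18), MOB1A (-1.78) and DLC1 (-1.37) lie beyond it.

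Genes of DNA replication fell together. Of 24 measured genes of origin licensing and the helicase 23 fell and none rose (median -0.94), and of 26 genes of replicative polymerases and the fork 24 fell and none rose (median -0.72), against 15.6% lower among all genes. In these bulk samples, fewer cells in S phase and less RNA of these genes per cell cannot be told apart. CDC45, which belongs to the CMG helicase, went from 7.52, 7.60 and 7.40 to 5.36, 5.80 and 5.71. MCM10, which activates that helicase, went from 8.23, 8.20 and 7.87 to 6.22, 6.53 and 6.60. POLA1, the catalytic subunit of the polymerase that starts each strand, whose promoter is printed above, went from 8.26, 8.30 and 8.17 to 6.43, 6.47 and 6.49. None of these groups overlapped. PRIM1, the primase subunit that works with it, fell by 1.79.

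Within the replication machine, the fall was uneven between complexes. All 6 MCM2 to MCM7 genes fell, from MCM4 (-0.82) to MCM2 (-1.30), as did all 4 GINS genes, all 4 genes of the POLA and PRIM complex, all 5 RFC genes of the clamp loader and all 3 RPA genes of the single-strand binding complex. Of 6 ORC genes 5 fell, ORC1 the furthest (-1.01), and ORC4 (0.16) did not pass. Of 4 polymerase delta genes only POLD3 (-0.82) and POLD1 (-0.42) fell. These families were picked after the values were seen. Genes of nucleotide supply followed: 12 of 17 fell and none rose, beside 15.6% lower and 18.1% higher among all genes. The falls included DUT, which removes dUTP, from 12.29, 12.26 and 12.23 to 10.76, 10.54 and 10.77, and RRM2, a ribonucleotide reductase subunit, by 1.40. Another probe set of RRM2 fell further, by 3.01, from a mean of 11.01 in siNT to 8.0 in siYAP.

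Regulators of the G1 to S step were mostly lower where they were called, with 16 of 34 lower (47.1%) and 3 higher (8.82%), beside 15.6% and 18.1% of all genes. E2F5, a repressor E2F, went from 8.53, 8.58 and 8.34 to 6.35, 6.33 and 6.19, and CCNE2, cyclin E2, from 8.86, 8.73 and 8.62 to 6.80, 6.56 and 7.27. RBL1, the pocket protein p107, fell by 1.57. CCND2, cyclin D2, went the other way, from 6.71, 6.82 and 6.38 to 7.59, 7.62 and 7.54. The other 2 that rose were MYC (0.33) and TFDP2 (0.33). MYC did not pass without siNT array 3 (0.25) or siYAP array 2 (0.21), and another probe set of TFDP2 fell by 0.99.

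Genes of mitosis fell as widely. All 21 mitotic kinases and cyclins fell (median -0.86), as did 27 of 28 kinesin, spindle and cytokinesis genes (median -1.08) and 25 of 32 kinetochore and centromere genes (median -0.76), with none higher. Among all genes 15.6% were lower and 18.1% higher, and in the group of 2988 genes with the highest siNT levels 777 were lower. CDC25C, the phosphatase that activates CDK1, went from 7.91, 7.96 and 8.05 to 6.45, 6.51 and 6.42, and CDK1 fell by 1.13. CCNB2, cyclin B2, went from 10.44, 10.44 and 10.55 to 9.02, 9.04 and 9.17. KIF23, a motor of the midzone in cytokinesis, went from 8.91, 8.84 and 8.88 to 7.17, 7.05 and 7.51. Both genes have a CHR match in the windows printed above. HJURP, the chaperone that loads the centromeric histone CENPA, fell by 1.68, and CENPI by 1.45.

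All 12 measured mitotic kinesins of the list fell, from KIF22 to KIF15 (-1.70), and HMMR, a spindle protein, fell by 1.59. Of 11 CENP genes 9 fell. All 8 condensin genes fell, the largest being NCAPG (-1.16), while among 5 cohesin core genes STAG1 (-0.36) and STAG2 (-0.28) fell and SMC1A rose by 0.59, which its other probe set (-0.12) did not show. TOP2A, the decatenating topoisomerase, went from 10.46, 10.57 and 10.64 to 9.23, 9.01 and 9.30. In the anaphase-promoting complex list 4 of 12 genes fell (33.3%) and 2 rose (16.7%), beside 15.6% and 18.1% of all genes. Its subunit CDC23 went from 10.82, 10.85 and 10.75 to 9.23, 9.15 and 9.27, and the ubiquitin-loading enzyme gene UBE2C fell by 1.21, the activator gene CDC20 by 0.96 and UBE2S by 0.72, whereas the subunit genes ANAPC5 (0.28) and ANAPC13 (0.26) rose. Of 30 centrosome and tubulin genes 13 fell and 1 rose, led by CEP135 (-1.43), a centriole protein whose other probe set was not called. TUBA1A, an alpha tubulin, was the 1 that rose (0.37).

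**Figure D3:**
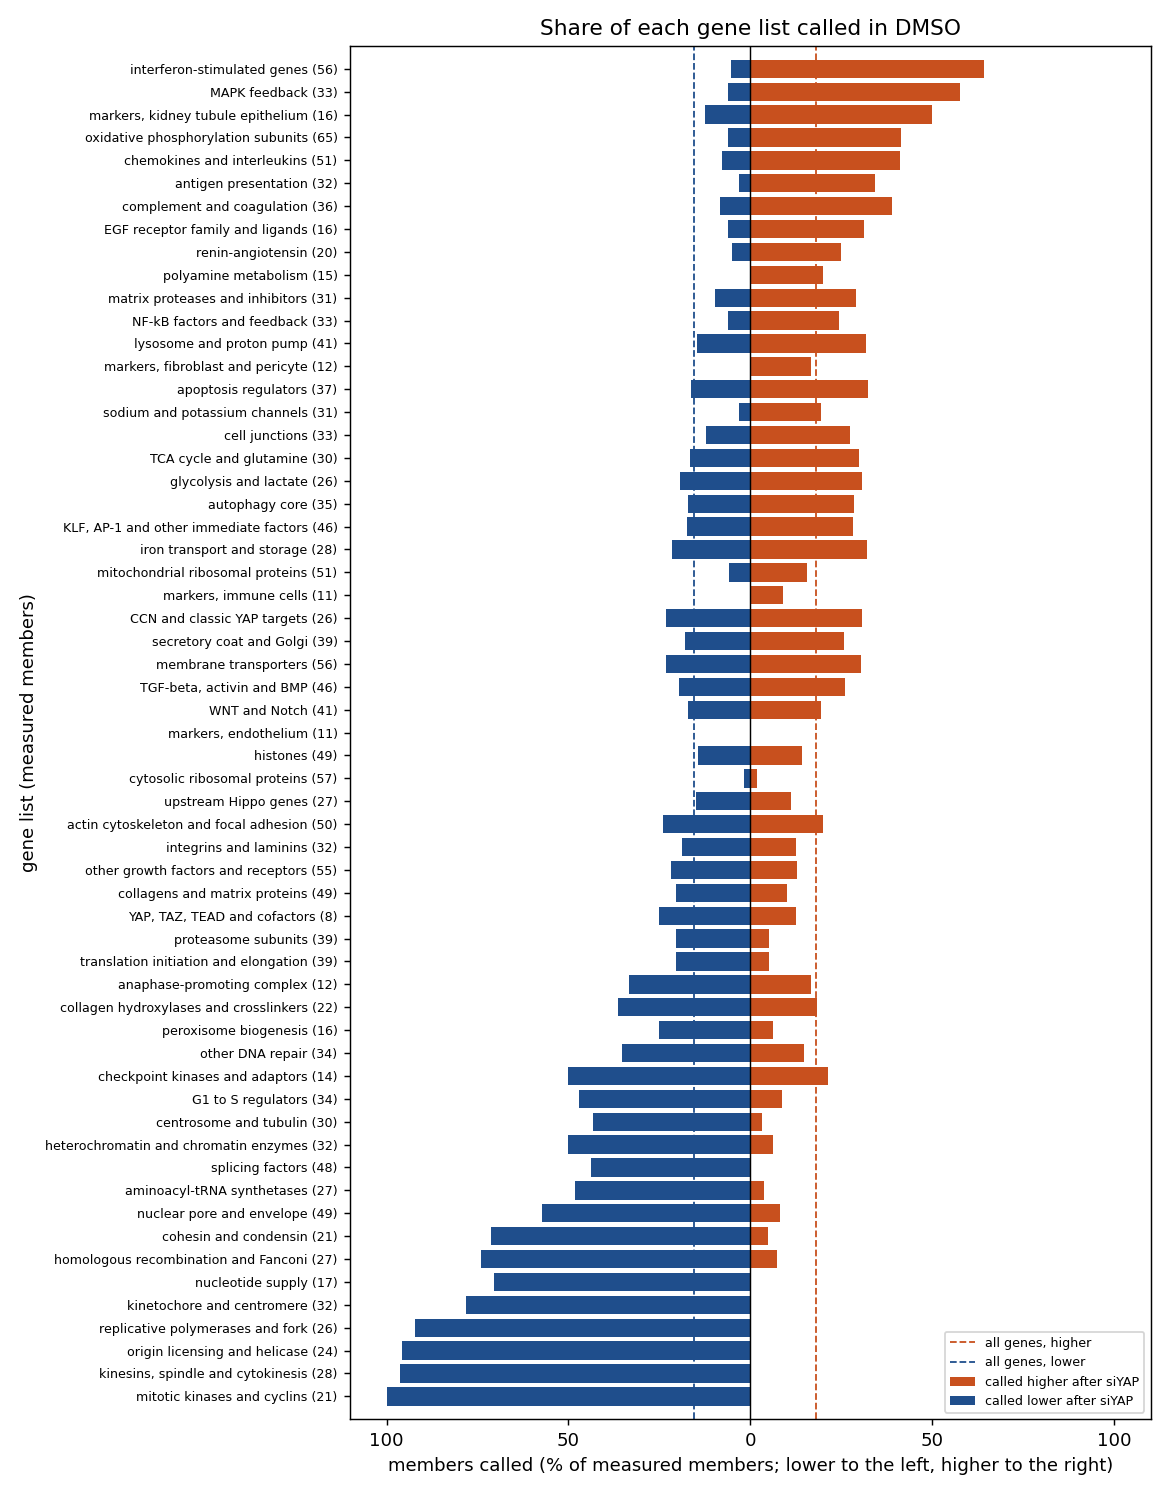
Share of the measured members of each gene list called higher (right) or lower (left) in siYAP against siNT in DMSO, ordered by the difference, with the number measured in brackets and dashed lines at the shares over all genes (18.1% higher, 15.6% lower). Mitotic kinases and cyclins lie at the bottom with all 21 members lower, and interferon-stimulated genes at the top with 36 of 56 higher.

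DNA repair lists held more falls than rises, beside 18.1% higher and 15.6% lower among all genes. Of 27 genes of homologous recombination and the Fanconi pathway 20 fell and 2 rose (median -0.57). BLM, a helicase that unwinds recombination intermediates, went from 7.32, 7.33 and 7.26 to 5.54, 5.72 and 5.82, and EXO1, a resecting nuclease, from 7.93, 7.85 and 7.85 to 5.99, 6.55 and 6.30. FANCF, a member of the Fanconi core complex, went the other way, from 7.52, 7.70 and 7.32 to 8.50, 8.27 and 8.35, and the MRN subunit gene NBN rose by 0.56. Among 34 other repair genes 12 fell and 5 rose: the uracil glycosylase gene UNG fell by 1.05 and the mismatch repair gene MSH6 by 0.66, and XPC of nucleotide excision repair rose by 0.30. Of 14 checkpoint genes 7 fell, among them MDC1 (-1.30) and H2AX (-0.99), and 3 rose.

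Chromatin and nuclear structure genes fell too, with larger shares lower than the 15.6% of all genes. Of 32 genes of heterochromatin and chromatin enzymes 16 fell and 2 rose. HELLS, a chromatin remodeller needed for DNA methylation, went from 8.88, 8.87 and 8.92 to 6.91, 6.55 and 7.13, and ATAD2, a bromodomain ATPase, fell by 1.59. Of 49 nuclear pore and envelope genes 28 fell and 4 rose. LMNB1, lamin B1, went from 9.84, 9.78 and 9.75 to 7.43, 7.89 and 7.79, more than 4-fold lower with no overlap. Of 19 genes named NUP, 17 fell, led by NUP54, a central channel protein, by 1.60. Its other probe set was not called. Import receptor genes were split: KPNA2 fell by 0.75, while KPNA1 rose by 0.35 and KPNA3 by 0.39.

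Histone genes were mixed, with 7 of 49 higher (14.3%; 4 without siNT array 2) and 7 lower (14.3%), beside 18.1% and 15.6% of all genes. H2AC6 went from 5.82, 5.94 and 5.90 to 7.45, 7.53 and 7.35, and H2BC12 from 8.41, 8.39 and 8.50 to 9.91, 9.81 and 9.88. H2BC5 rose by 1.35. Of 19 H2A and H2B genes 5 rose and 1 fell, and of 15 H3C and H4C genes 1 rose and 1 fell. Probes for such similar paralogues may read each other's RNA, so single histone values are uncertain.

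RNA processing and translation genes moved little. Over all genes 18.1% were higher and 15.6% lower. Of 48 splicing factors 21 fell (43.8%) and none rose, led by SRSF10 (-0.54), and none changed 2-fold. The 21 were 13 without siYAP array 1. Of 39 translation factors 8 fell (20.5%) and 2 rose (5.13%), and EIF4H, a cofactor of the helicase eIF4A, fell the furthest, by 0.94. Of 27 aminoacyl-tRNA synthetases 13 fell (48.1%), led by NARS2 (-0.64), and 1 rose (YARS2, 0.27). That 13 became 8 without siNT array 2 and 7 without siYAP array 3. Few cytosolic ribosomal protein genes passed the test: of 57, RPS27L rose by 0.17, RPL39L fell by 0.48, and their median was 0.01. RPS27L lost its call without siNT array 1 or 2 (0.17 and 0.13) or without siYAP array 1 or 3 (0.14 and 0.17). Of 39 proteasome genes 8 fell (20.5%; 5 without siYAP array 2) and 2 rose (5.13%). PSMB8, an immunoproteasome subunit, rose by 0.41 and PSMD12 by 0.23, and PSMD10 fell by 0.51.

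Genes of oxidative phosphorylation rose in small steps. Of 65 measured rows 27 rose and 4 fell (median 0.14), against 18.1% and 15.6% of all genes, and none changed 2-fold. NDUFA5, a subunit of complex I, went from 10.11, 10.00 and 9.82 to 10.54, 10.43 and 10.60, the largest rise of the list. SDHD, an anchor subunit of complex II, fell from 11.06, 11.03 and 10.91 to 10.39, 10.37 and 10.58, and the complex I gene NDUFS1 fell by 0.41. The other probe set of each of NDUFA5 and SDHD was not called. By complex, 10 of 27 NDUF genes rose and 1 fell, 7 of 13 COX genes rose, and 7 of 16 ATP synthase rows rose and 1 fell, with a pseudogene among those rows.

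Beside 18.1% higher and 15.6% lower among all genes, 8 of 51 mitochondrial ribosomal protein genes rose (15.7%), MRPL34 by 0.94, and 3 fell (5.88%). Those 8 were 4 or 5 without any array other than siNT array 3, and 11 without that one. In the TCA cycle and glutamine list 9 of 30 rose (30%) and 5 fell (16.7%). The pyruvate dehydrogenase gene DLAT fell by 0.85 and DLD, the shared dehydrogenase subunit, rose by 0.54. In glycolysis 8 of 26 rose (30.8%) and 5 fell (19.2%; 3 without siYAP array 3). PFKM, a phosphofructokinase, was higher by 0.55. The glucose transporter gene SLC2A3 was lower by 0.90, and neither of its 2 further probe sets was called.

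Interferon-stimulated genes rose on a broad front. Of 56 measured genes 36 rose (64.3%) and 3 fell (5.36%), beside 18.1% and 15.6% of all genes. The median was 0.38, and 7 rose at least 2-fold. ISG15, a ubiquitin-like modifier, went from 9.07, 9.12 and 9.39 to 10.24, 10.35 and 10.82. All 4 IFIT genes rose, IFIT1 the most (0.98), as did all 3 IFITM genes and 3 of 4 OAS genes, led by OAS1 (1.19). The IFITM genes share sequence, so each value is uncertain. MX1, a standard interferon marker, did not pass and stood near the bottom of the scale at 4.86, 4.96 and 4.97 in siNT and 4.77, 4.83 and 4.86 in siYAP (limma adjusted p = 0.43). It was named after its value was seen. GBP1, a GTPase induced by interferon gamma, went from 10.52, 10.38 and 10.52 to 9.13, 9.07 and 9.45, and PARP12 fell by 0.38 and IRF1 by 0.25.

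Antigen presentation and complement genes were mostly higher where they were called. Over all genes 18.1% were higher and 15.6% lower. Of 32 antigen presentation genes 11 rose (34.4%) and 1 fell (3.12%), TAP2 by 0.58. HLA-DMA, which edits class II peptides, went from 6.82, 6.81 and 6.76 to 8.06, 7.88 and 7.95, and HLA-E, a nonclassical class I molecule, from 11.09, 11.10 and 10.91 to 11.81, 11.80 and 11.90. HLA genes share sequence, so their single values are uncertain. Of 36 complement and coagulation genes 14 rose (38.9%) and 3 fell (8.33%). C3, the central complement protein, went from 9.70, 9.68 and 9.63 to 10.90, 10.83 and 10.73, C1R rose by 0.97 and CFB by 0.95, and the urokinase gene PLAU fell by 0.65. TFPI fell by 0.31 with the probe set used, while others of it were called higher, by 1.02, 0.435 and 0.24, and a further one was not called.

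Chemokine and interleukin genes were among the largest rises and also held large falls. Of 51 genes 21 rose (41.2%) and 4 fell (7.84%), beside 18.1% and 15.6% of all genes. IL18, an inflammasome cytokine, went from 8.26, 8.19 and 8.24 to 9.99, 9.76 and 9.98. CXCL14, a chemokine of epithelia, went from 6.64, 6.87 and 6.89 to 8.37, 8.16 and 8.32, and CXCL8, which attracts neutrophils, from 9.67, 9.69 and 9.57 to 10.62, 10.80 and 11.08. No group overlapped for these 3. Of 11 CXCL genes 7 rose and none fell, and of 9 CCL genes CCL20, CCL2 (1.02) and CCL5 (0.38) rose. CCL5 lost its call without siNT array 1 or 2 (0.41 and 0.31) or siYAP array 2 or 3 (0.35 and 0.30). The 4 falls were TNFRSF21, the receptor gene IL13RA1 (-1.04), IL11 (-0.94) and LTB (-0.77). In the NF-kB list 8 of 33 rose (24.2%), led by the adaptor gene TRAF1 (0.78), and 2 fell (6.06%).

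On a list of MAPK feedback genes and their relatives (DUSP, SPRY, RGS and ETV genes and immediate early factors) 19 of 33 rose and 2 fell (median 0.25). Over all genes 18.1% were higher and 15.6% lower. Not all of its members are known as ERK-induced feedback genes, among them DUSP3 and DUSP11, which rose. ETV1, an ETS factor, went from 5.91, 5.63 and 5.50 to 7.48, 7.24 and 7.37, although only 1 of its 4 further probe sets was called as higher. SPRY2, a Sprouty inhibitor of receptor signalling, went from 8.23, 8.33 and 8.14 to 9.43, 9.48 and 9.55. RGS20 rose by 0.85, EGR1 by 0.69 and DUSP4, a nuclear ERK phosphatase, by 0.61. DUSP6, the cytoplasmic ERK phosphatase, fell by 0.29 and DUSP7 by 0.21. DUSP6 was called when only siYAP array 3 was left out (-0.35) and otherwise lost its call (-0.31 to -0.26), and DUSP7 lost it without siNT array 2 (-0.20) or siYAP array 2 (-0.18). In the EGF receptor list 5 of 16 rose (31.2%; 3 without siNT array 1 or siYAP array 1), among them HBEGF (0.77), and TGFA fell by 0.49.

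Other growth factor and morphogen lists moved in both directions, set against 18.1% higher and 15.6% lower among all genes. Of 55 other growth factor and receptor genes 7 rose (12.7%) and 12 fell (21.8%). PDGFD, a platelet-derived growth factor, went from 6.46, 6.64 and 6.20 to 8.29, 8.08 and 8.03, and the insulin receptor substrate genes IRS1 (-0.68) and IRS2 (-0.71) fell. In the TGF-beta, activin and BMP list 12 of 46 rose (26.1%) and 9 fell (19.6%): the receptor gene TGFBR2 rose by 0.87 and TGFBR3 by 0.84, and INHBE, an activin subunit, went from 6.29, 6.25 and 6.24 to 4.45, 4.51 and 4.34, near the bottom of the scale. Of 41 WNT and Notch genes 8 rose (19.5%) and 7 fell (17.1%), with the ligand gene WNT5A lower by 1.11 and RBPJ, the Notch transcription factor, higher by 0.57. Of 46 KLF, AP-1 and other immediate factors 13 rose (28.3%) and 8 fell (17.4%; 5 without siNT array 2 or siYAP array 2), ATF3 by 1.00 upward and SOX9, a progenitor factor, from 8.19, 8.25 and 8.00 to 7.09, 6.94 and 7.17.

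Matrix and adhesion lists held called genes of both directions, beside 18.1% higher and 15.6% lower among all genes. MMP1, interstitial collagenase, went from 9.08, 9.03 and 9.01 to 10.72, 10.72 and 10.78. Of 31 matrix proteases and inhibitors 9 rose (29%) and 3 fell (9.68%). Of 49 collagen and matrix genes 5 rose (10.2%; 2 without siNT array 1, 3 without siYAP array 2), FBN1 by 1.02. The falls were 10 (20.4%), COL5A2 by 1.32. Of 22 collagen hydroxylase and crosslinking genes 8 fell, with the prolyl isomerase gene FKBP14 (-1.03) and the transglutaminase gene TGM2 (-0.91) after PLOD2, and 4 rose. The 8 were 5 without siNT array 1 or 2 and 4 without siYAP array 3. Of 32 integrin and laminin genes 6 fell (18.8%) and 4 rose (12.5%). ITGB3, the beta subunit of the vitronectin receptor, went from 9.22, 9.27 and 9.05 to 7.18, 7.45 and 7.27, with 5 of its 6 further probe sets called in the same direction, and LAMA2 rose by 0.86.

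Actin and junction genes were split, beside 18.1% higher and 15.6% lower among all genes. Of 50 actin and focal adhesion genes 12 fell (24%) and 10 rose (20%). TPM4, a tropomyosin, went by 0.59 downward and RND3, which opposes RhoA, by 0.84 upward. Of 33 junction genes 9 rose (27.3%) and 4 fell (12.1%). EPCAM, an epithelial adhesion protein, went from 7.89, 7.95 and 7.74 to 8.86, 8.93 and 8.92, and CLDN1, a claudin, rose by 0.87. DSC2, a desmosomal cadherin, was uneven, at 5.67, 4.59 and 5.44 in siYAP against 3.84 to 4.21 in siNT. Among 16 tubule markers 8 rose (5 without siYAP array 2) and 2 fell, with EPCAM, KRT7 (0.73) and MME (0.41) higher and KRT18 (-0.35) and PAX8 (-0.18) lower. PAX8 lost its call without siNT array 1 or 2 (-0.17 and -0.19) or without siYAP array 2 or 3 (-0.17 for each), and none of its 7 further probe sets was called lower. The immune marker that rose was CD74 (0.35), the invariant chain, while PTPRC did not pass. In limma 0 of 11 endothelial markers were called. Of 12 fibroblast and pericyte markers ACTA2 (0.42) and RGS5 (0.44) rose, and RGS5 kept its call only where siYAP array 3 was left out (0.57, otherwise 0.36 to 0.46).

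Transport, iron and lysosome genes held single large changes in lists that otherwise split. Over all genes 18.1% were higher and 15.6% lower. Of 56 membrane transporters 17 rose (30.4%) and 13 fell (23.2%). SLC1A4, a neutral amino acid transporter, went from 8.24, 8.24 and 8.20 to 6.80, 6.88 and 6.64, and SLC1A1, a glutamate transporter of the kidney tubule, rose by 1.08. Of 28 iron genes 9 rose (32.1%) and 6 fell (21.4%). The metalloreductase gene STEAP1 led the rises, from 7.53, 7.47 and 7.58 to 8.55, 8.58 and 8.60. Of 41 lysosome and proton pump genes 13 rose (31.7%) and 6 fell (14.6%). ATP6V1A, the catalytic subunit of the proton pump, went from 10.57, 10.63 and 10.57 to 11.75, 11.72 and 11.74, while OSTM1 of the same organelle fell.

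Autophagy and secretory lists held more rises than falls and the peroxisome list more falls, against 18.1% higher and 15.6% lower among all genes. Their median siNT levels were 9.04, 10.02 and 8.64, where calls of both directions were more frequent than over all genes. Of 2989 genes between 7.26 and 9.23, 818 were higher and 752 lower. Whether these lists differ from genes of their level was not tested. Of 35 autophagy genes 10 rose (28.6%) and 6 fell (17.1%; 3 without siNT array 2). BECN1, a subunit of the lipid kinase that starts autophagosomes, went from 9.57, 9.52 and 9.58 to 8.51, 8.39 and 8.57, and ATG2B, a lipid transfer protein, rose by 0.73. Of 16 peroxisome genes 4 fell (25%) and 1 rose (6.25%), and of 39 coat and Golgi genes 10 rose (25.6%), SEC24A by 0.76, and 7 fell (17.9%; 4 without siNT array 1). Of 15 polyamine genes 3 rose (20%), SAT1 by 0.81, and none fell. Of 31 sodium and potassium channel genes 6 rose (19.4%) and 1 fell (3.23%), and of 20 renin-angiotensin genes 5 rose (25%) and 1 fell (5%).

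Among apoptosis regulators 12 of 37 rose (32.4%) and 6 fell (16.2%), beside 18.1% and 15.6% of all genes. The largest falls were those of MCL1 and its antagonist. MCL1, which blocks apoptosis, went from 11.44, 11.43 and 11.40 to 10.05, 10.06 and 10.10, and PMAIP1 (NOXA), which binds and neutralises MCL1, from 11.23, 11.26 and 11.20 to 9.47, 9.39 and 9.75. TP53I3, a p53 target, went from 7.87, 7.79 and 8.08 to 9.47, 9.29 and 9.18. RIPK2 rose by 0.55 and the death receptor gene TNFRSF10B by 0.48.

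Promoter motifs were counted in windows reaching from 250 bases before to 50 after the RefSeq start, on both strands, for 9563 tested genes with an entry. The letters searched were TTCCCGC or TTGGCGC (E2F), TTTGAA (CHR), CCAAT, TTTC, any 2 bases and TTTC (ISRE-like), CATTCC (TEAD), TGANTCA (AP-1) and GGG, any 2 bases and TTTCC (NF-kB-like). An E2F match read as GCGCCAA and followed by T is also a CCAAT match. Over these tested genes 13.4% of windows held E2F, 11% CHR, 37.3% CCAAT, 2.97% ISRE-like, 11.3% TEAD, 5.43% AP-1 and 2.1% NF-kB-like. Over all 27305 windows of the table the shares were 9.33%, 15.4%, 35.7%, 3.65%, 14%, 7.76% and 1.92%.

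Genes with an E2F match were lower more often than genes without. Of those with it 25.1% were called lower, against 14.9% of those without. For CHR the shares were 20.5% and 15.7%, and for CCAAT 18.8% and 14.7%. Of the 445 genes with both CHR and CCAAT 26.5% were lower, beside 15.6% of all 11963 genes, and 12.6% higher, beside 18.1%. Called higher were 18% of genes with E2F against 18.9% without. For CHR these shares were 16.1% and 19.1%, and for CCAAT 17.7% and 19.5%. Among genes called and at least 2-fold lower, 31.5% held E2F, 25.8% CHR and 52.2% CCAAT. In the licensing list 57.1% of windows held E2F, and in the kinesin list 73.1% held CHR and 80.8% CCAAT. On the other side, 24.3% of genes with an ISRE-like match were called higher against 18.6% without, and 24.9% of genes with an NF-kB-like match against 18.7%. Called lower were 13.7% with an ISRE-like match against 16.3% without, and 16.4% with an NF-kB-like match against 16.2%. In the interferon list 62.8% of windows held the ISRE-like motif, as the IFITM1 window above does. For TEAD 20.5% were higher and 14% lower, against 18.6% and 16.5% without a match. For AP-1 17.9% were higher and 11.9% lower, against 18.9% and 16.5% without, and 1 of the 178 windows of genes called and at least 2-fold lower held it (0.562%). These are descriptions of letters in short windows and say nothing on which factor was bound.

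**Figure D4:**
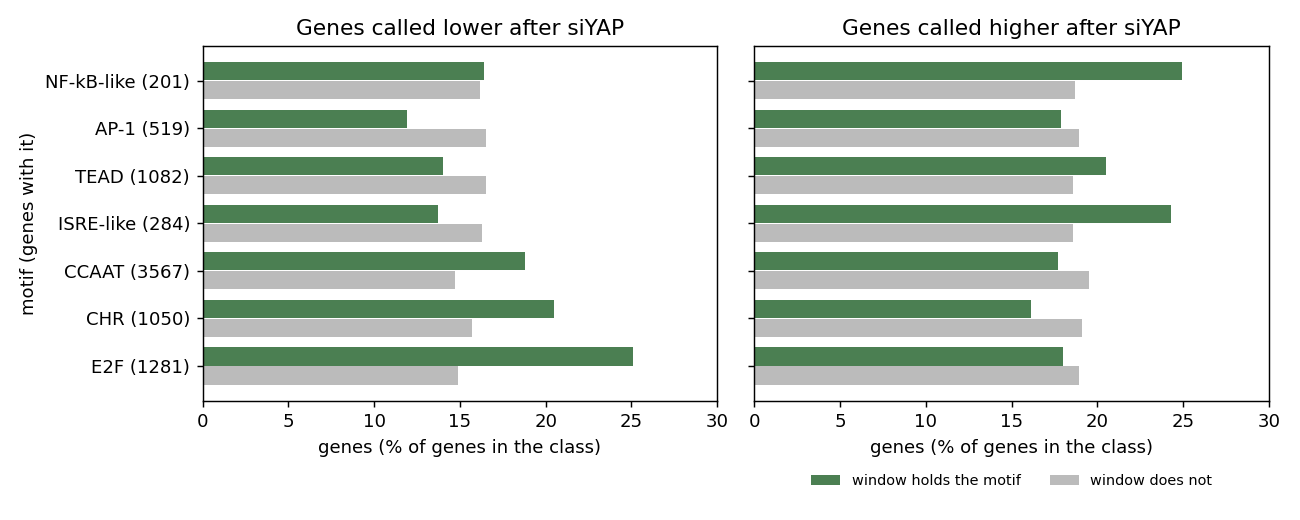
Share of tested genes called lower (left) or higher (right) in siYAP among genes whose promoter window holds a motif (green) or does not (grey), with the number of genes holding it in brackets. The widest gap is for E2F among genes called lower (25.1% against 14.9%).

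Of 4310 genes with several probe sets, 2002 had a called one, and 54 had probe sets called in opposite directions. In 3 of these both changes were at least 0.5: ALG13 (0.91 and -0.57), FGFR2 (0.62 and -1.33) and LAMP2, a lysosomal membrane protein. The LAMP2 probe set used above had means of 9.73 in siNT and 10.34 in siYAP. Its further probe sets had 9.32 and 7.73, and 9.71 and 8.51. LAMP2 is thus counted as higher through the probe set used, while its further ones were called lower. Isoforms of LAMP2 differ at their 3' ends, but which isoform each probe set reads was not tested. These genes were named after their values were seen. FGF2 is a further case, at 0.37 with the probe set used and -0.94 with the other. Of 368 called genes that the rule named, 190 had further probe sets, and for 65 of these no further one was called in the same direction. Beside those marked at their values, the genes given in the text that belong to the 65 are E2F5, FBN1, CFB, IL11, TGFBR2, KRT7, STRN3, GDF15, ACTA2, DUSP6, DUSP7, RGS5, ANAPC13 and PSMD12.

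The same siRNA comparison under erastin, on 6 other arrays, gave 2397 genes higher (20% of those tested) and 1776 lower (14.8%). All 30 leading genes of the DMSO comparison were called in the same direction there: CCL20 changed by 2.81 in DMSO and 3.49 under erastin, AGT by 2.71 and 2.19, LYRM1 by -2.91 and -2.68, and PLOD2 by -2.67 and -2.41. The difference between both responses was tested directly. It gave 0 called genes (0%) in limma, with a smallest adjusted p of 0.153 and 1179 genes (9.86%) at an unadjusted p under 0.05. With a trended and robust variance 8 genes passed. They were SLC1A4 (-1.46 in DMSO and -0.84 under erastin), the stress factor gene ATF3 (1.00 and 0.54), GDF15 (0.56 and -0.18), TXNIP (0.29 and -0.20), JAG1 (0.13 and -0.27), ALDH1A1 (0.84 and 0.41), HLA-G (0.38 and -0.01) and TMEM158 (-0.66 and -0.17). A difference that misses the threshold does not show that the responses were equal.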

How the data were processed

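Gene expression was measured on single-channel arrays of RCC4 cells. The deposited values are log2 levels that the authors obtained by RMA in Affymetrix Expression Console, per the submitters' processing notes, which as seen here give no version. RMA makes the distributions of all arrays alike, so a shift in RNA content of the cells is invisible, and it compresses the changes of dim genes. Of 22277 probe sets, 62 of them controls, 19065 named 1 gene, 1043 several and 2107 none. From the first kind came 11963 genes. The test was limma (version 3.58.1, R 4.3.3) with group means on all 12 arrays (8 residual and 4.17 prior degrees of freedom) and Benjamini-Hochberg adjustment over all genes. All adjusted p-values are limma's. With 3 arrays a group, their number limits the precision (median SE 0.078).

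Named genes were YAP, Hippo and target genes, the 15 largest rises and falls with non-overlapping arrays (predicted loci passed over), and up to 4 called genes per direction of each list. Family members, genes with discordant probe sets and most printed promoters were added after their values were seen. Members and lists were chosen with earlier results of these data known. Shares of promoters came from RefSeq (GRCh38.p14). Samples with the same number did not deviate together (correlations -0.095, 0.025 and 0.092), so numbers were not used as pairs. No scan date was at hand, so no batch was tested. The running numbers that open the sample titles separate siNT from siYAP arrays, and what they stand for is not given. If they mark an order of handling, its effect cannot be told apart from that of the siRNA. Alternatives covered the arrays fitted, scaling, dim genes, probe sets, the variance model, a minimum fold and each array left out.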

Additional observations from a re-analysis of the deposited data

How the results depend on the processing

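Leaving out each DMSO array in turn gave 1781 to 2060 genes higher and 1585 to 1770 lower, and 109 to 124 genes at least 2-fold higher and 202 to 220 at least 2-fold lower, with 0 interaction calls each time. With the replicate number as a block, 2076 genes were higher and 1774 lower, and the counts at 2-fold were 111 and 213; the replicate numbers are no pairing by the check above. A minimum of 1.2-fold in limma's treat left 653 higher and 698 lower (48.3% of calls higher), and a trended and robust variance called 8 interaction genes where the standard variance called 0. All other alternatives kept the 4 counts of called genes within 1.5 times, and with array medians or quantiles aligned 0 genes were called in the opposite direction. Centring the arrays on their medians moved the median of all genes from 0.02 to 0.028. Of 368 named called genes 232 kept direction and call in all alternatives, and 136 lost or turned the call in at least 1, 134 of them by the 1.2-fold minimum. Of 67 list counts of 5 or more, 61 to 67 stayed within 1.5 times when an array was left out, and 11 with the 1.2-fold minimum. Probe set choice reversed 5 genes: with every probe set on its own FGF2 changed by -0.94, LAMP2 by -1.59, TFDP2 by -0.99 and TFPI by 1.02, and with the mean of probe sets FGF2 by -0.29, LAMP2 by -0.73, PAX8 by 0.02, TFDP2 by -0.33 and TFPI by 0.29. The cause was not tested for any of these. Signal over background limits genes near the bottom of the scale, such as YAP1, SUV39H2 and INHBE after silencing and CPEB3 before it, whose change can be understated.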
